A study of Homo sapiens with 6 samples.

Results

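HERVIP10 and LTR10 are the internal regions and the long terminal repeats (LTRs) of one primate endogenous retrovirus group of class I. The 10 entries described here are the rows of the count table named HERVIP10F-int, HERVIP10FH-int and HERVIP10B3-int (internal regions) and LTR10A, LTR10B, LTR10C, LTR10D, LTR10E, LTR10F and LTR10G (LTRs). They were taken by name, all 10 were present among 15641 entries, and all 10 passed the filter on low counts that left 3219 entries for testing. The libraries hold chromatin-fraction RNA of the human embryonic stem cell line H9, with 3 libraries labelled naive (cells kept in RSeT, a medium sold for a naive-like state) and 3 labelled primed, the conventional state of human embryonic stem cells. The labels attach the RSeT growth protocol to the primed libraries too, so the state rests on the treatment label alone. No label ties the libraries of a group to separate cultures, so a p-value here reflects only how these 6 libraries vary, and that variation may be technical.

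An endogenous retrovirus is a viral genome that entered the germ line and is now inherited. Its internal region carries the remains of the viral genes and lies between 2 LTRs, which hold the promoter, the enhancer and the polyadenylation signal. Many copies have lost the internal region and survive as solo LTRs. LTR10 copies are known in other human cells as regulatory DNA: some hold binding sites for the tumour suppressor p53, others act as AP-1-bound enhancers in colorectal cancer, and an LTR10A copy is a placental promoter of NOS3, the endothelial nitric oxide synthase gene. Counts in this table are summed over all copies of a name, so a value belongs to a whole subfamily and has no single position, and no consensus sequences of these repeats were used here.

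Library totals were 9748202, 17791046 and 16700953 counts in naive replicates 1 to 3, and 7192242, 118793 and 8106871 in primed replicates 1 to 3. Primed replicate 2 therefore stood apart in depth: 1 count in it is worth 5.59 CPM (counts scaled by the library total after TMM, edgeR's correction for library composition), against 0.0702 to 0.126 CPM in the other 5. The composition differed as well, since alpha satellite, the centromeric tandem repeat, took 25.3% to 42.9% of naive counts and 0.221% to 0.625% of primed counts. Ribosomal RNA varied between libraries too. It took 6.07%, 5.58% and 0.162% of counts in naive replicates 1 to 3, and 17.7%, 4.03% and 8% in primed replicates 1 to 3. With library size as the only scaling, a larger alpha satellite share leaves a smaller share for the rest. The median log2 change of all tested repeats was -0.61 under that scaling and -0.0046 under TMM. Of the entries known to mark the naive state, HERVK-int (log2 3.62) and LTR5_Hs (1.59) were higher in naive libraries (edgeR adjusted p = 7.88e-05 and 0.00443), while LTR7Y (0.56) and SVA_D (0.06) did not pass (0.0686 and 0.837). LTR7 (0.87) and HERVH-int (1.14), listed here for the primed state, were higher in naive libraries (0.0156 and 0.0106). With library size alone HERVK-int (2.91) and LTR5_Hs (0.87) still passed (edgeR adjusted p = 1.57e-20 and 0.00697), while LTR7 (0.17) and HERVH-int (0.42) did not (0.619 and 0.225).

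With TMM scaling, 2 of the 3 HERVIP10 internal regions were higher in naive cells, HERVIP10F-int and HERVIP10FH-int, each about 1.5-fold, and none of the 7 LTR10 subfamilies passed the test. The tests are edgeR's quasi-likelihood test of naive minus primed over all 3219 entries, with Benjamini-Hochberg adjustment and a call at 0.05. Among the 1265 named repeats tested, that is all entries other than simple repeats, 10.4% were called higher and 1.19% lower; over all tested entries it was 4.94% and 7.77%. Of the 10 entries, 8 had a log2 change above 0, against 77.1% of named repeats. Their median log2 change was 0.26, against 0.21 for all named repeats, so as a set the 10 stood close to the named repeats as a whole.

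HERVIP10F-int, the internal region of one HERVIP10 subfamily, had 1704, 2160 and 2904 counts in naive replicates 1 to 3, and 939, 18 and 1534 counts in primed replicates 1 to 3. After TMM scaling this was 194, 194 and 204 CPM in naive libraries, against 119, 101 and 153 CPM in primed libraries. The 3 naive libraries lay close together and all above the primed ones, of which replicate 3 was the highest. Naive libraries averaged 197 ± 5.85 CPM and primed libraries 124 ± 26.4 CPM (SD, n = 3 each), a log2 change of 0.61 ± 0.15 (SE; 95% interval 0.27 to 0.94; edgeR adjusted p = 0.0300). The 18 counts of primed replicate 2 allow 59.7 to 159 CPM by an exact Poisson interval, which covers counting error only and does not reach the naive values. Without that library the change was 0.55 (edgeR adjusted p = 0.0380). In bulk RNA a difference in the number of cells that carry a transcript and one in the amount per cell cannot be told apart.

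HERVIP10FH-int, the internal region of a second and closely named subfamily, had 942, 1452 and 1761 counts in naive replicates 1 to 3, and 553, 13 and 914 counts in primed replicates 1 to 3. This was 107, 130.1 and 124 CPM in naive libraries, against 70.0, 72.7 and 91.0 CPM in primed libraries. Here too the groups did not overlap, and the gap was narrowest between naive replicate 1 and primed replicate 3. Naive libraries averaged 120.3 ± 11.8 CPM and primed libraries 77.9 ± 11.5 CPM (SD, n = 3 each), with a log2 change of 0.60 ± 0.15 (SE; 95% interval 0.26 to 0.94; edgeR adjusted p = 0.0302). For the 13 counts of primed replicate 2 the Poisson interval runs from 38.7 to 124 CPM and takes in the naive values of 107 and 124 CPM. Without that library the change was 0.59 (edgeR adjusted p = 0.0418).

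Among the 1265 named repeats, 36% had naive libraries all above primed ones by TMM CPM and 3.24% all below, and 160 had a larger log2 change than HERVIP10F-int. Both calls were lost without naive replicate 2, where HERVIP10F-int gave 0.66 (edgeR adjusted p = 0.0562) and HERVIP10FH-int 0.57 (0.0887), and without primed replicate 1 (0.52, 0.218 and 0.46, 0.263). With simple repeats left out of the fit both changes were 0.38 and neither passed (edgeR adjusted p = 0.0979 each). The HERVIP10FH-int call was also lost without naive replicate 3 (0.61, edgeR adjusted p = 0.0572) and with DESeq2 (0.56, DESeq2 adjusted p = 0.0624). Scaling by library size alone gave -0.02 for HERVIP10F-int and -0.04 for HERVIP10FH-int (edgeR adjusted p = 0.967 and 0.912). Under that scaling all 10 changes were below 0 and 1 entry, LTR10D, was called lower (-0.75, edgeR adjusted p = 0.0330), as were 17% of named repeats.

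HERVIP10B3-int, the third internal region and the one with the most counts, did not pass. It was at 407, 259 and 317 CPM in naive replicates 1 to 3, against 313, 190.2 and 315 CPM in primed replicates 1 to 3. The groups overlapped, and naive replicate 2 lay below primed replicates 1 and 3. The log2 change was 0.21 (95% interval -0.24 to 0.65; edgeR adjusted p = 0.519), an interval that includes the changes of the other 2 internal regions.

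**Figure D1:**
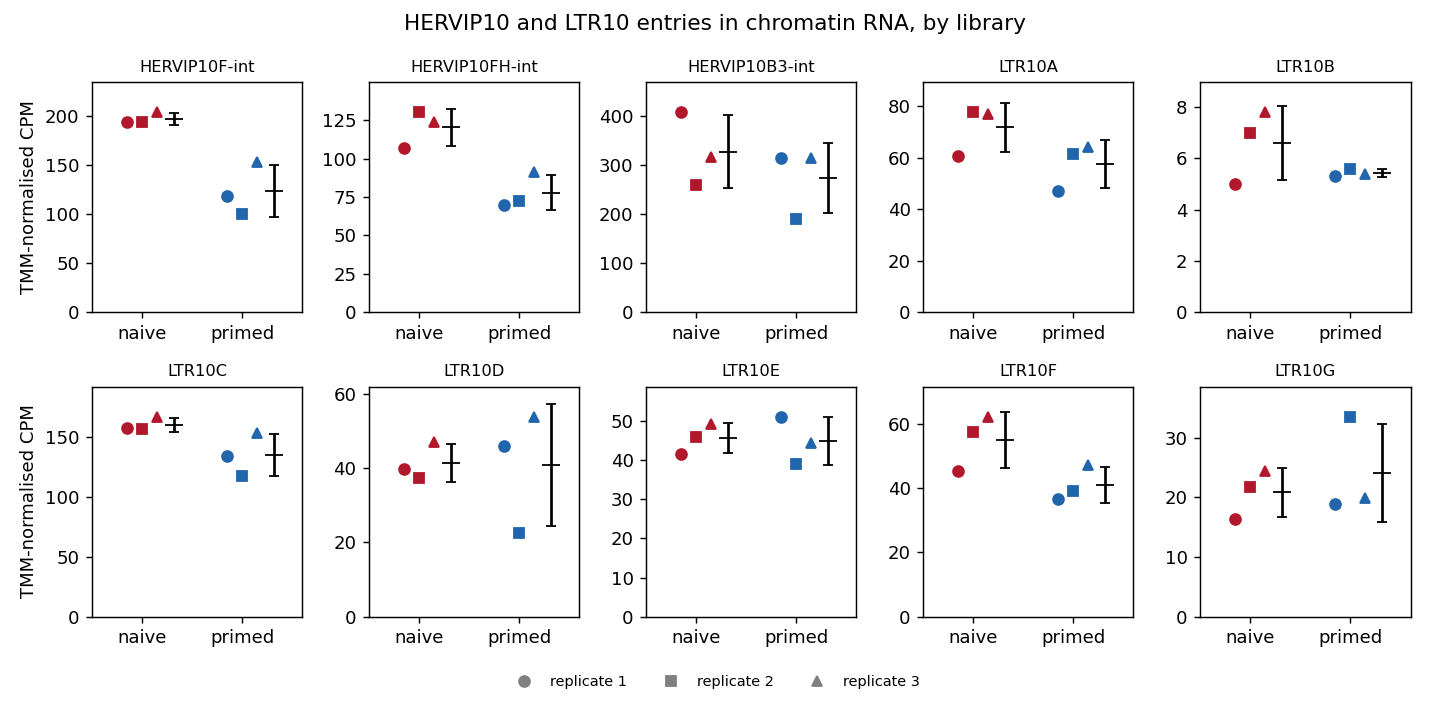
TMM-normalised CPM of each of the 10 entries (vertical axes from 0, scaled per panel) in the 3 naive and the 3 primed libraries; symbols mark the replicate number, and the bar beside each group is the mean ± SD. Naive libraries lie above all primed ones for HERVIP10F-int (194 to 204 against 101 to 153 CPM), HERVIP10FH-int and LTR10C, and the groups overlap in the other 7 panels.

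LTR10C, the LTR subfamily with the most counts, had 1382, 1745 and 2381 counts in naive libraries and 1063, 21 and 1536 counts in primed libraries. It was at 157, 156 and 167 CPM in naive replicates 1 to 3, against 134, 117 and 153 CPM in primed replicates 1 to 3. The groups did not overlap, though naive replicate 2 and primed replicate 3 were nearly level. The log2 change of 0.21 did not pass the test (95% interval -0.09 to 0.50; edgeR adjusted p = 0.315).

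LTR10F and LTR10A, the subfamilies known for AP-1-bound enhancers in colorectal cancer, had the highest changes among the LTRs, and neither passed. LTR10A was at 60.6, 77.5 and 76.8 CPM in naive libraries, against 47.1, 61.5 and 64.2 CPM in primed libraries (log2 0.35, 95% interval -0.04 to 0.73; edgeR adjusted p = 0.201). LTR10F was at 45.4, 57.4 and 62.4 CPM in naive libraries, against 36.8, 39.2 and 47.4 CPM in primed libraries (log2 0.40, 95% interval -0.01 to 0.80; edgeR adjusted p = 0.164). In both, naive replicate 1 was the one naive library that fell among the primed values.

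LTR10D and LTR10E had the lowest changes of the 10. LTR10D was at 39.7, 37.3 and 47.0 CPM in naive libraries, against 46.0, 22.4 and 53.9 CPM in primed libraries, with a log2 change of -0.19 (95% interval -0.63 to 0.25; edgeR adjusted p = 0.554). LTR10E was at 41.7, 46.1 and 49.3 CPM in naive libraries, against 51.2, 39.2 and 44.4 CPM in primed libraries, with a log2 change of -0.04 (95% interval -0.39 to 0.32; edgeR adjusted p = 0.905). Both groups of libraries were mixed in each. The means gave the opposite sign to the fit, with a naive mean of 41.3 CPM and a primed mean of 40.8 CPM for LTR10D, and a naive mean of 45.7 CPM and a primed mean of 44.9 CPM for LTR10E, so no direction is read from either. The LTR10D value of primed replicate 2 rests on 4 counts and its Poisson interval is 6.10 to 57.3 CPM.

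LTR10B and LTR10G had the fewest counts. LTR10B had 44, 78 and 111 counts in naive libraries and 42, 1 and 54 in primed libraries (log2 0.31, 95% interval -0.39 to 1.001; edgeR adjusted p = 0.538). LTR10G had 144, 243 and 347 counts in naive libraries and 149, 6 and 200 in primed libraries (log2 0.03, 95% interval -0.50 to 0.57; edgeR adjusted p = 0.944). A change as large as that of HERVIP10F-int lies within the intervals of LTR10A, LTR10B and LTR10F. It lies just above that of LTR10G, and above those of LTR10C, LTR10D and LTR10E. Over the 7 LTR10 entries, 0 passed at an unadjusted edgeR p under 0.05 and 0 by DESeq2.

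**Figure D2:**
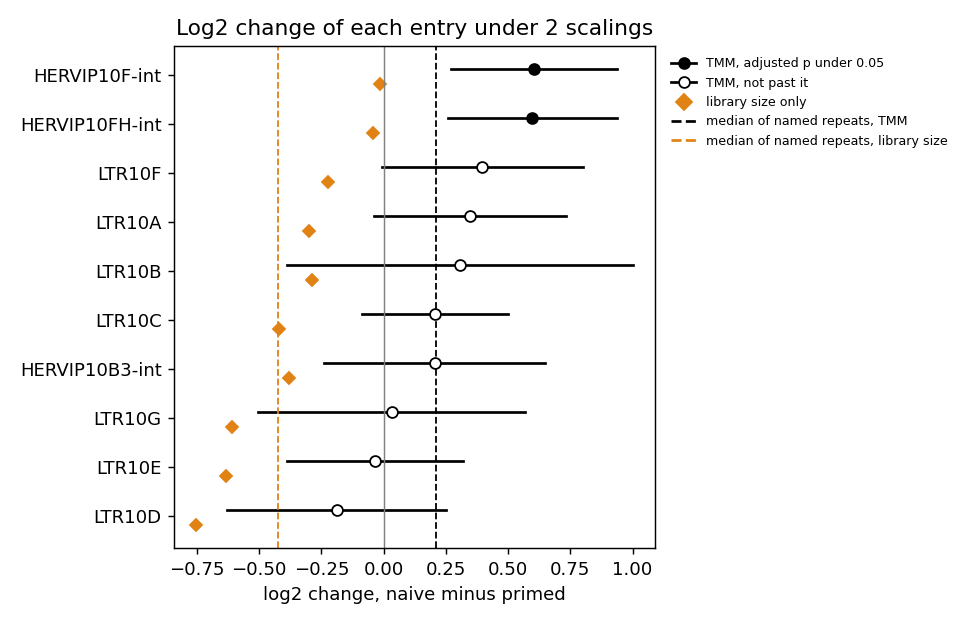
Log2 change (naive minus primed) of the 10 entries. Circles are the TMM estimates with their 95% intervals, filled where the adjusted p is under 0.05, diamonds are the estimates with library size as the only scaling, and dashed lines are the medians of all named repeats under each. HERVIP10F-int and HERVIP10FH-int lie to the right of the median of named repeats under both scalings, and LTR10D, LTR10E and LTR10G to the left.

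Since the scaling moves all repeats together, each change was also set against the median of the named repeats in the same fit. HERVIP10F-int stood 0.39 above that median under TMM and between 0.34 and 0.52 above it in 15 alternatives (other scalings, filters, rows and tests, the replicate number as a block, and each library left out). HERVIP10FH-int stood 0.39 above it, and between 0.30 and 0.49 in the same alternatives. LTR10F was above the median in all 15, by 0.09 to 0.29. LTR10D was below it in all 15, by -0.49 to -0.29 on the log2 scale, as were LTR10E (-0.37 to -0.10) and LTR10G (-0.31 to -0.06). LTR10A and LTR10B were above it in 14 of the 15, and HERVIP10B3-int and LTR10C lay on either side of it. How many other named repeats keep to the same side in all 15 was not counted, so no trait of these entries is read from it. With all libraries thinned to the total of primed replicate 2, which left 4 of the 10 entries in the test, HERVIP10F-int stood 0.10 and HERVIP10FH-int 0.83 above the median. These distances are descriptions, without a test. A change of scaling hardly moves a distance from the median of the same fit. The fits without 1 library share their other libraries. The 15 alternatives are therefore not 15 separate supports, and several of them lose the calls.

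A measure that needs no scaling between libraries is how the counts of the 10 entries divide among them. The 10 entries together had 9443, 10999 and 15370 counts in naive libraries and 6655, 122 and 9509 counts in primed libraries. HERVIP10F-int held 18.05%, 19.6% and 18.9% of these in naive replicates 1 to 3, against 14.1%, 14.8% and 16.1% in primed replicates 1 to 3. All naive shares were above all primed ones, with means of 18.9% ± 0.797 and 15% ± 1.03 (SD, n = 3 each). How often an entry's share of such a sum separates was not counted. Against single named repeats outside the 10, which is another measure, separation was common. The HERVIP10F-int ratio was higher in all naive libraries for 54.8% of them. LTR10C held 14.6%, 15.9% and 15.5% in naive libraries, against 16.0%, 17.2% and 16.2% in primed libraries, so its naive shares lay just below the primed ones. LTR10E likewise held 3.89%, 4.67% and 4.57% in naive libraries, against 6.09%, 5.74% and 4.69% in primed libraries. Its shares in naive replicate 2 and primed replicate 3 were nearly level. With no background counted for shares, no direction is read from LTR10C or LTR10E. HERVIP10FH-int held 9.98% to 13.2% in naive and 8.31% to 10.7% in primed libraries, with overlap. The shares add up to the whole, so a higher share of 1 entry lowers those of the others. LTR10C was lower by share, though its TMM CPM was higher in all naive libraries (156 to 167 against 117 to 153 CPM). A share also depends on the length and copy number of a subfamily, so shares of different entries are not compared as levels.

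**Figure D3:**
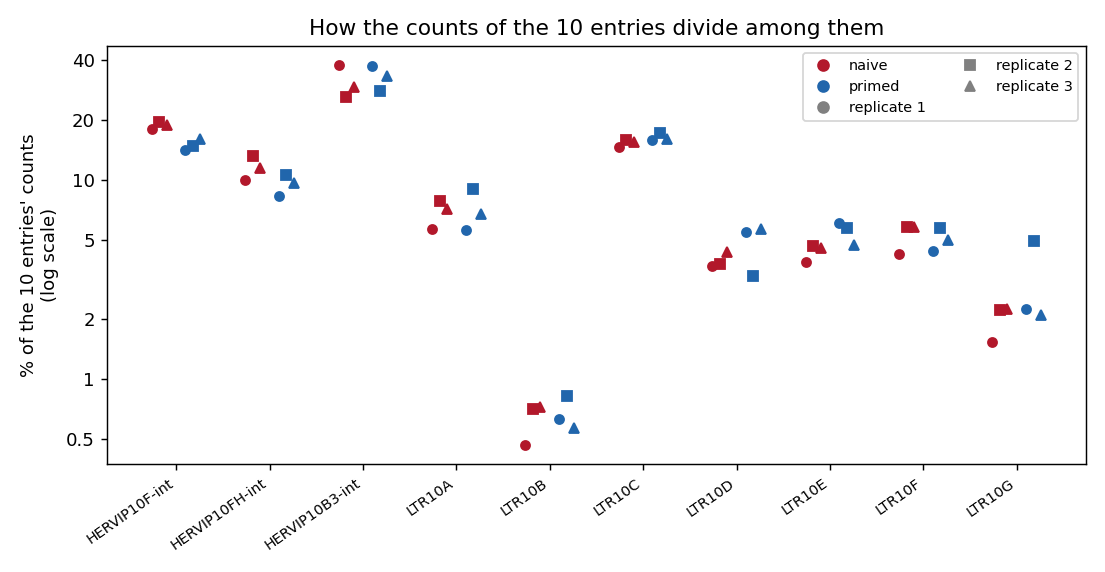
Percent of the summed counts of the 10 entries held by each entry (log scale), per library; naive libraries are left of primed ones, and symbols mark the replicate number. The HERVIP10F-int shares are higher in all naive libraries (18.05% to 19.6%) than in all primed libraries (14.1% to 16.1%). Those of LTR10C and LTR10E are lower, for LTR10E only just (4.67% in naive replicate 2 against 4.69% in primed replicate 3), and those of the other 7 overlap. How often shares separate in this way was not counted. The shares add up to the whole, so a higher share of 1 entry lowers those of the others.

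Ratios of counts within a library need no scaling either. The log2 ratio of HERVIP10F-int to LTR10C was 0.30, 0.31 and 0.29 in naive replicates 1 to 3, against -0.18, -0.22 and -0.0019 in primed replicates 1 to 3. The naive ratios were higher in every library. HERVIP10F-int was higher in all naive libraries relative to 5 of the 9 other entries (LTR10C, LTR10D, LTR10E, LTR10F and LTR10G), and so was HERVIP10FH-int (LTR10A, LTR10C, LTR10E, LTR10F and LTR10G). These counts are near the background: relative to the 1255 named repeats outside the 10, the naive ratios were all above the primed ones for 54.8% with HERVIP10F-int and 50.6% with HERVIP10FH-int. The log2 ratio of HERVIP10FH-int to HERVIP10F-int, the 2 called internal regions, overlapped between the groups and averaged -0.72 ± 0.14 in naive libraries, against -0.65 ± 0.17 in primed ones (SD, n = 3 each; exact two-sided permutation p = 0.7, where the smallest possible p is 0.1). The summed internal regions relative to the summed LTR10 entries gave log2 ratios of 0.95, 0.53 and 0.57 in naive libraries, against 0.56, 0.19 and 0.53 in primed libraries, with overlap.

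In all, the 10 entries took 0.0969%, 0.0618% and 0.0920% of counts in naive replicates 1 to 3, against 0.0925%, 0.103% and 0.117% in primed replicates 1 to 3. With alpha satellite and ribosomal RNA left out of the totals, the shares were 0.141%, 0.120% and 0.141% in naive libraries, against 0.113%, 0.108% and 0.128% in primed libraries. The direction of the difference thus turned with the total used, and the groups overlapped in both. On that second total HERVIP10F-int was at 255, 236 and 266 CPM in naive libraries, against 159, 159 and 206 CPM in primed libraries. The groups did not overlap there. Per all counts they did, with 175, 121 and 174 CPM in naive libraries, against 131, 152 and 189 CPM in primed libraries. By TMM CPM 36% of named repeats had naive libraries all above primed ones, and that share was not counted on the second total.

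Entries listed beside the group by name gave 0 calls under TMM, where 11.5% of named repeats were called. Of HERVI-int, LTR10B1, LTR10B2 and the HERV1 LTRs, 8 entries were present and 6 were tested. Of these 6, 0 passed with edgeR, at an unadjusted p under 0.05 or with DESeq2, and their median log2 change was -0.09. The HERV1 LTRs were taken for their name, and their kinship to the group was not checked. HERV1_LTRa, HERV1_LTRb and HERV1_LTRc gave -0.07, -0.47 and -0.74, while LTR10B2 gave 0.07. With library size alone, where 17% of named repeats were called lower, 2 of the 6 were: HERVI-int (-0.69, edgeR adjusted p = 0.0425) and HERV1_LTRc (-1.31, 0.0315). HERV1_LTRc had only 16, 17 and 33 counts in naive libraries and 20, 0 and 40 in primed libraries. HERV1_LTRa and HERV1_LTRb also had 0 counts in primed replicate 2. HERVI-int, the internal region of the related HERV-I group, averaged 59.4 ± 3.32 CPM in naive libraries, against 56.4 ± 19.7 CPM in primed ones (SD, n = 3 each; log2 -0.10, edgeR adjusted p = 0.727), so the sign of the fitted change runs against the means, and the value of primed replicate 2 rests on 6 counts. LTR10B1, the LTR10 subfamily best known for p53 sites, gave 0.11 (edgeR adjusted p = 0.802), and MER61C, MER61E and MER61F, the MER61 LTRs listed here for p53 sites, gave 0.31, 0.11 and 0.10 (0.291, 0.775 and 0.822). These 3 do not stand for all MER61 entries, since MER61A (1.07, edgeR adjusted p = 0.00959), MER61D (0.95, 0.0117), MER61B (0.60, 0.0442) and MER61-int (0.60, 0.0315) were called higher in naive libraries.

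Beside the wider classes, 2 of 3 HERVIP10 internal regions were called higher with a median log2 change of 0.60, while 13 of 36 other HERV internal regions were called higher with a median of 0.49. Among LTRs, 0 of 7 LTR10 entries were called with a median of 0.21, while 31 of 234 other LTR-numbered entries were called higher and 1 lower with a median of 0.33. With library size alone the same 4 medians were -0.04, -0.17, -0.42 and -0.30. Whether the HERVIP10 and LTR10 entries differ from these classes was not tested.

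**Figure D4:**
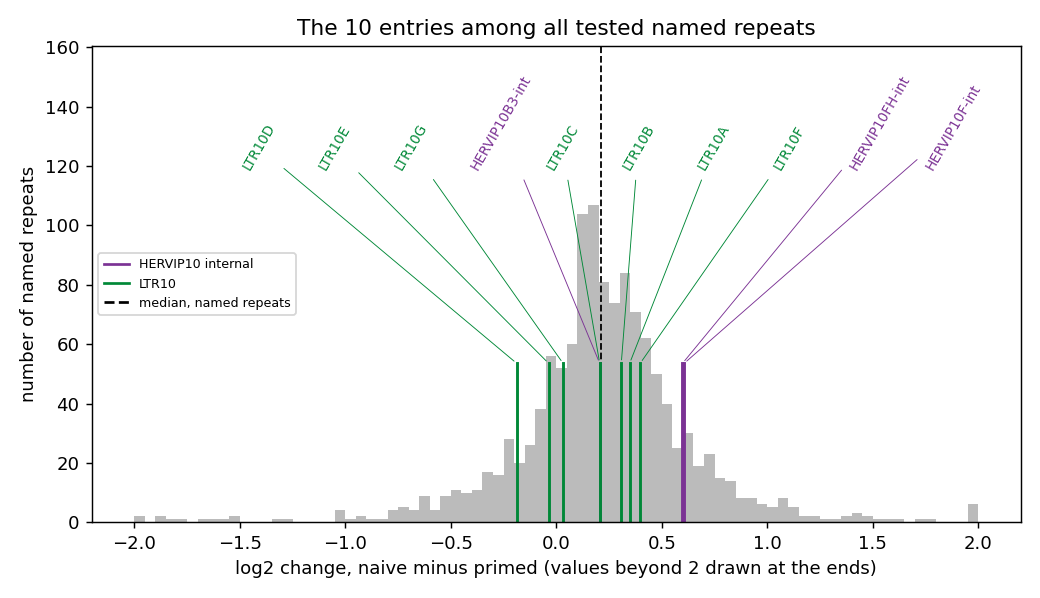
Histogram of the log2 change (naive minus primed, TMM) of the 1265 tested named repeats, with the 10 entries as vertical lines (internal regions and LTRs in different colours) and the median of named repeats, 0.21, dashed. HERVIP10F-int and HERVIP10FH-int lie at 0.61 and 0.60 with 160 and 166 named repeats above them, and the LTR10 entries spread from -0.19 to 0.40 around the median.

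The 5 named repeats whose log2 CPM followed HERVIP10FH-int most closely over the 6 libraries were MSTD (Pearson r = 0.998), MLT1A1 (0.998), MER50 (0.996), MER61B (0.995) and MLT1E2 (0.995), out of 1255 candidates. All 5 are retroviral or retrovirus-like LTR families. MER50 (log2 0.59, edgeR adjusted p = 0.0302) and MER61B (0.60, 0.0442) were called higher in naive libraries, and the other 3 were not (0.30 to 0.41). Among the 10 entries themselves the 45 pairwise correlations ran from -0.91 to 0.96. The highest was between HERVIP10F-int and LTR10C (0.96), followed by HERVIP10F-int with HERVIP10FH-int (0.94), and the lowest was between HERVIP10B3-int and LTR10G. The correlations are descriptions over 6 libraries that share the difference in state and the shallow primed replicate 2, where LTR10G was at 33.6 CPM from 6 counts and HERVIP10B3-int at its lowest. Subfamilies with similar sequence can compete for the same reads, and the rule for reads that map to several places is not given in these sources.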

How the data were processed

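The deposited table holds raw counts per repeat name and library, whole numbers with no sign of normalisation by the authors. Trimmomatic 0.39, STAR 2.7.8a, featureCounts and Subread 2.14.2 were used, per the submitters' processing notes, and per the labels' protocols the library kit keeps strand. Build, repeat annotation, strand setting and treatment of multi-mapping reads are not given in these sources. Columns were matched to libraries by title and groups taken from the treatment label.

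Counts were fitted with edgeR 4.0.16 in R 4.3.3 (TMM, filterByExpr with the group, quasi-likelihood F-test over all rows, Benjamini-Hochberg at 0.05). An SE is the size of the log2 change divided by the square root of F, and intervals are 95%. DESeq2 1.42.0 was an alternative on the same rows. Ratios used a pseudocount of 0.5, and correlations log2 CPM with a prior count of 2. The procedure was tested on simulated counts with planted changes larger than those of the 10 entries, so that test does not bear on calls of this size. Named entries are the 10 members, listed relatives, state-linked entries and the 5 repeats most correlated with HERVIP10FH-int; the shares within the 10 entries and the ratios of other pairs were chosen after seeing the data. The members and lists were chosen with earlier results of these data known. Plots used matplotlib 3.10.9 (Python 3.11.15).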

Additional observations from a re-analysis of the deposited data

How the results depend on the processing

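The 2 calls among the 10 entries were kept with RLE or upper-quartile factors, no filter, a CPM of at least 1 in 3 libraries, or alpha satellite and ribosomal RNA left out. Called higher were 1 with DESeq2, and 0 with library size alone, with simple repeats left out (HERVIP10F-int 0.38 and HERVIP10FH-int 0.38, edgeR adjusted p = 0.0979 each), with libraries thinned to the shallowest (4 of the 10 tested) or with glmTreat beyond a log2 of 1; without 1 library it was 0 to 2. Library size alone called 1 lower, LTR10D (-0.75, edgeR adjusted p = 0.0330) and turned HERVIP10F-int (-0.0157), HERVIP10FH-int (-0.0403), HERVIP10B3-int (-0.38), LTR10A (-0.30), LTR10B (-0.29), LTR10C (-0.42), LTR10F (-0.22) and LTR10G (-0.61). LTR10G, near 0, also turned with RLE (-0.0045), upper-quartile (-0.0455), DESeq2 (-0.0222), simple repeats left out (-0.16), alpha satellite and ribosomal RNA left out (-0.0156) and the replicate block (-0.0247). Without simple repeats HERVIP10B3-int gave -0.0356 and LTR10C -0.0215, and thinning gave -0.0205 for HERVIP10B3-int. Without 1 library LTR10E ran from -0.10 to 0.0604 and LTR10G from -0.0726 to 0.20. The causes were not tested. The difference in summed share was -0.0206 points of all counts and 0.0178 points without alpha satellite and ribosomal RNA; without naive replicate 2 the first was -0.00973 points, and without primed replicate 3 it was -0.0140. The log2 ratio of internal regions to LTR10 entries differed by 0.26 between naive and primed libraries, and by 0.12 to 0.33 without 1 library, lowest without naive replicate 1 and 0.14 without primed replicate 2.

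Over the table, 159 were higher and 250 lower. The counts were 104 higher with upper-quartile factors (343 lower), 28 and 1051 with library size alone, 86 and 137 with DESeq2, 264 and 596 with no filter, 31 and 17 without simple repeats, 2 and 0 thinned, and 4 and 1 beyond a log2 of 1. Without 1 library they ran from 8 to 238 higher and from 7 to 413 lower, both lowest without primed replicate 1. With the replicate number as a block, 264 were higher and 374 lower, and 2 of the 10 entries were higher (HERVIP10F-int and HERVIP10FH-int). Same-numbered libraries deviated together with r = 0.146, 0.0867 and 0.0659, and each of the 6 correlated best with its own number, which is a hint from the data and not from the labels. Depth limits the primed side most, since primed replicate 2 holds 1 to 34 counts per entry.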
